A study of Mus musculus with 13 samples.

Results

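The subunits of the oxidative phosphorylation machinery that are encoded in the nucleus were followed in mouse hippocampus and in cultured mouse glia. Earlier results of these data were known when this group of genes was chosen. Members were matched by gene symbol, from the Nduf, Sdh, Uqcr, Cox and Atp5 series, and 77 of the 24777 symbols in the deposited tables matched. By complex these were 35 genes of complex I, 4 of complex II, 8 of complex III, 13 of complex IV and 15 of complex V. The other 2, Atp5s and Atp5sl, carry the name of the ATP synthase but were not placed in a complex. Ndufa4, long listed with complex I and now regarded as a subunit of cytochrome c oxidase, was counted with complex IV.

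The tissue arm is hippocampus of 3xTg mice, whose mutant transgenes for amyloid precursor protein, presenilin and tau model Alzheimer disease. In this tissue 3 control libraries (AAV9, an adeno-associated virus used as a gene vector) were compared with 4 libraries labelled N+F (AAV9 carrying Nurr1 and Foxa2, a nuclear receptor and a forkhead transcription factor). All 7 carry amyloid beta in the treatment label. No wild-type tissue is among them, and the sources used here give neither the age of the mice nor the promoter of the vector. The culture arm holds 6 libraries labelled as primary glia from ICR pups at postnatal day 1, 3 hippocampal and 3 cortical. In each region 1 library had control lentivirus and no amyloid beta ("untreated" below), 1 had control lentivirus with amyloid beta, and 1 had Nurr1 and Foxa2 lentivirus with amyloid beta. The culture arm therefore has no replicates, and its folds compare libraries and carry no test.

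Complex I (NADH dehydrogenase) and complex II (succinate dehydrogenase, also an enzyme of the citric acid cycle) feed electrons to ubiquinone. Complex III passes them to cytochrome c, complex IV (cytochrome c oxidase) reduces oxygen with them, and complex V (ATP synthase) uses the proton gradient so made. All but complex II join nuclear subunits with subunits encoded in mitochondrial DNA, and several nuclear subunits exist as isoforms from separate genes that are used in different tissues. Neurons depend on this pathway for most of their ATP, while astrocytes draw more on glycolysis. None of the 13 protein-coding symbols of mitochondrial DNA was found in either table, so the mitochondrial share of the complexes was not analysed here.

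Nuclear respiratory factor 1 (NRF1) is a transcription factor known for binding near the start sites of many respiratory chain genes, so the promoters were searched for its letters. RefSeq promoter windows (GRCm38.p6) were matched for 63 of the 77 members, and the 250 bases before each start site were read on both strands. The letters searched, GCGCA then any base then GCGC, were found in 13 of the 63 members (20.6%), against 4.23% of all 27025 genes with a window. They stood in 6 of 31 complex I genes, 2 of 3 complex II genes, 0 of 5 complex III genes, 1 of 11 complex IV genes and 4 of 13 complex V genes. The stretches below, 5′ to 3′ along the gene, show one match in each of 5 members, from every complex that had any, with the matched letters in capitals. They are shown because these genes or their isoforms are described below.
Ndufa5 (complex I), chr6:24527697-24527726, minus strand: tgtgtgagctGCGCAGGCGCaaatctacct
Sdha (complex II), chr13:74350319-74350348, minus strand: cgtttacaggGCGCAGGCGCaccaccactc
Sdhd (complex II), chr9:50603909-50603938, minus strand: tcgctggggtGCGCACGCGCggtggcagcg
Cox6a1 (complex IV), chr5:115349101-115349130, minus strand: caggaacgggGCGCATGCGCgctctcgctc
Atp5g2 (complex V), chr15:102671070-102671099, minus strand: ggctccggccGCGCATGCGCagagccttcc
The matches begin 98 bases before the start site in Sdha, 79 in Sdhd, 162 in Cox6a1 and 42 in Atp5g2. The match of Ndufa5 lies 26 or 190 bases before the start, depending on which of its 2 start sites is used. Sdha held 3 matches and Cox6a1 held 2. The ETS letters CCGGAAG, a core bound by GABP (another regulator of respiratory genes), were found in 19.0% of members and 7.83% of all genes. The GC box GGGCGG (33.3% against 35.4%) and the CCAAT box (42.9% against 37.5%) were as frequent in members as in genes at large, within 6 percentage points. These are letter matches only and say nothing of binding.

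Depth was 10194437 to 25139406 counts in the tissue libraries and 52189025 to 78273121 in the culture libraries, and all 77 members passed the count filter in tissue. Levels are CPM (counts scaled to a common library size), TMM-scaled in tissue and relative to the library total in culture. CPM is not scaled to gene length. Levels, sums over genes and isoform shares are therefore meant for comparison between libraries. Whether the tissue replicates are separate animals is not in the labels, so the p-values reflect only how these samples spread, and that spread may be technical. As a check of the labels, Nurr1 (Nr4a2) stood at 19.5 to 44.8 CPM in the control tissue libraries and 22.01 to 33.5 in the N+F libraries. Foxa2 stood at 0.0790 to 0.179 CPM in control tissue and 0.0988 to 2.61 in N+F tissue, so neither vector gene separated the tissue groups. In culture Nr4a2 went from 3.35 to 488 CPM in the hippocampal pair and from 5.14 to 36.9 CPM in the cortical pair with the Nurr1 and Foxa2 virus. The neuron markers summed to 6148 to 6693 CPM in control tissue and 5385 to 7313 CPM in N+F tissue, so the tissue held neuronal RNA. The 10 excitatory hippocampal markers had a median log2 fold change of -1.31 and the 11 striatal markers one of 0.89 between the same groups, and the part of either in the results below was not tested. In bulk tissue, fewer cells of a type and less RNA per cell cannot be told apart.

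In the 3xTg hippocampus the respiratory chain genes stood slightly higher with N+F than with control, by a similar amount in every complex, and no gene passed the test. The summed level of all 77 members was 18271, 20414 and 21276 CPM in control 1 to 3 and 21283, 22937, 24537 and 20441 CPM in N+F 1 to 4. The means were 19987 ± 1547 (SD, n = 3) and 22300 ± 1817 (SD, n = 4), a difference of 11.6%, and the groups overlapped through N+F 4. Of the 77 members, 71 had a positive log2 fold change (92.2%), where 49.2% of the 15523 genes tested did. The members' median log2 fold change was 0.15 and that of all genes was -0.00. With edgeR's quasi-likelihood test and Benjamini-Hochberg adjustment over all genes, 0 members were called in either direction, where 0.00644% of all genes were called higher and 0.103% lower. At an unadjusted p under 0.05 there were 5 members higher (4.1% of all genes) and 0 lower (4.36% of all genes), and DESeq2 also called 0. In 13 members (16.9%) every N+F library was higher than every control library, against 3.92% of all genes, and in 1 member (1.30%) every N+F library was lower, against 4.19%.

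**Figure D1:**
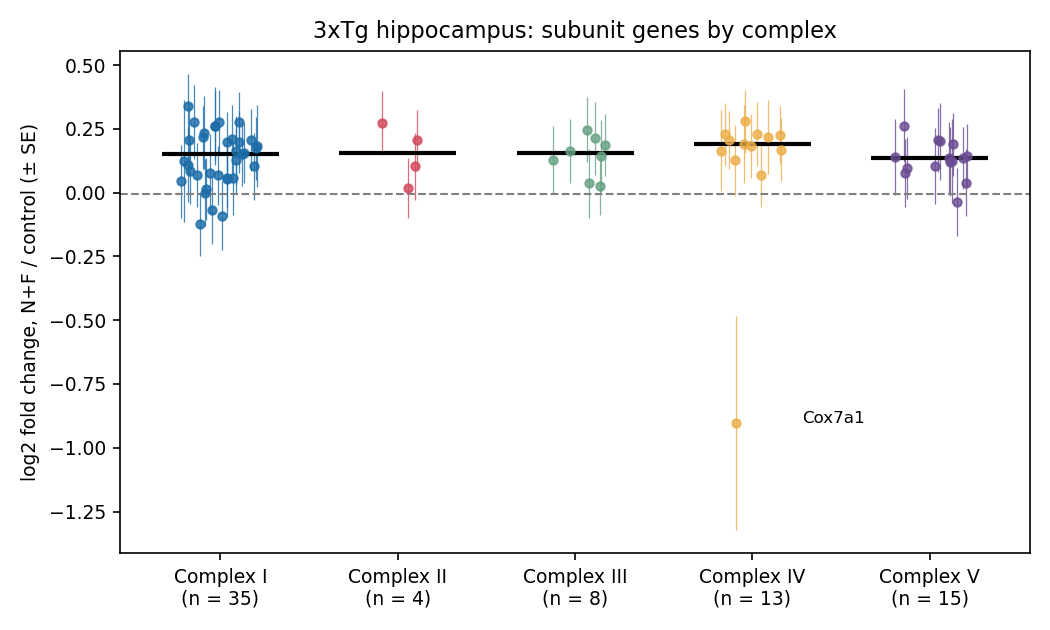
Log2 fold change of each member gene in 3xTg hippocampus (N+F over control, points, with the standard error as bars) by complex, with the median of each complex as a black line and the median of all genes tested as a dashed line. The 5 medians lie between 0.14 and 0.19, and Cox7a1 of complex IV lies apart at -0.90.

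The complexes lay close together. The median log2 fold change was 0.15 in complex I, 0.15 in complex II, 0.15 in complex III, 0.19 in complex IV and 0.14 in complex V. Summed levels were higher in N+F by 11.2% for complex I, 12.3% for complex II, 11.9% for complex III, 13.6% for complex IV and 10.4% for complex V. For complex II the controls lay at 532 to 588 CPM and the N+F libraries at 602 to 666 CPM, without overlap. For complex III the ranges, 1479 to 1659 CPM and 1661 to 1906 CPM, were separated by the narrow gap between control 3 and N+F 4. Complexes I, IV and V overlapped between the groups.

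The size of the shift depended on 1 control library. Relative to the control mean, the median member stood at -0.12 on the log2 scale in control 1, 0.03 in control 2 and 0.09 in control 3. The same value was 0.09, 0.18, 0.25 and 0.06 in N+F 1 to 4. Control 1 was the lowest of the 7 libraries for 40 members, while N+F 3 was the highest for 39 and N+F 2 for 26. Control 1 was also the deepest library, with 25139406 counts where the next, control 3, had 12571452. It had the highest TMM factor (1.11) and N+F 3 the lowest (0.895). The part of depth and scaling in the shift was not tested. Without control 1 the median was 0.08 and 59 of 77 members were positive. The members without overlap then numbered 13 higher (16.9% of members, 8.95% of all genes) and 3 lower (3.90%, 8.57% of all genes). Without control 2 they numbered 18 higher (23.4%, 7.02% of all genes). Without control 3 the higher ones numbered 28 (36.4%, 7.92% of all genes), and without N+F 4 they numbered 27 (35.1%, 7.45% of all genes). Without N+F 1, N+F 2 or N+F 3 they numbered 17, 14 and 15 (6.78%, 5.68% and 5.39% of all genes).

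**Figure D2:**
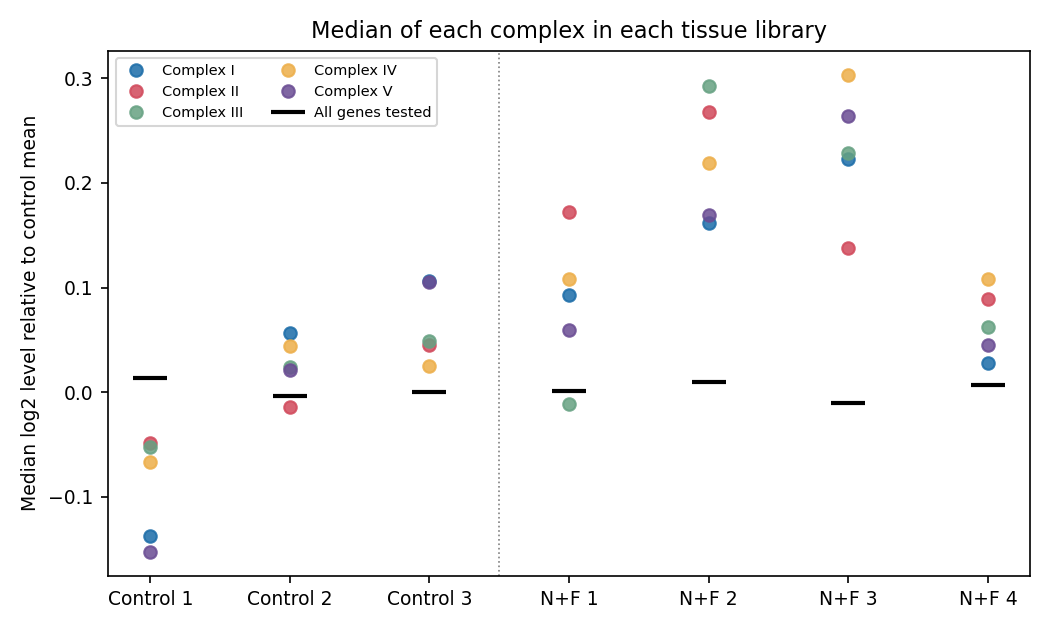
Median log2 level of each complex in each tissue library, relative to the mean of the 3 controls (points, coloured by complex), with the median of all genes tested as a black dash. All 5 complexes are lowest in control 1 and the highest points belong to N+F 2 and N+F 3, while the all-gene dash stays near 0 in every library.

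Complex I holds a catalytic core that carries the flavin and the iron-sulfur clusters, and many accessory subunits around it. The 7 nuclear core genes had a median log2 fold change of 0.08 and the 28 accessory genes one of 0.17. Ndufa1, an accessory subunit of the membrane arm whose gene lies on the X chromosome, had the highest value of the complex. It stood at 62.8, 60.7 and 76.0 CPM in control 1 to 3 and 87.0, 82.3, 92.1 and 75.1 CPM in N+F 1 to 4. Only N+F 4 fell within the control range, just under control 3. Its log2 fold change was 0.34 ± 0.13 (SE), with an adjusted p of 0.462 (edgeR). Ndufa10, an accessory subunit of the membrane arm, was the lowest of the complex at -0.12 ± 0.12 (adjusted p 0.854, edgeR), with 131 to 156 CPM in controls and 126 to 150 CPM in N+F, so the groups overlapped widely. Ndufa3 and Ndufb2, small accessory subunits of the membrane arm, both had a log2 fold change of 0.28 without overlap between groups, and an adjusted p of 0.569 and 0.547 (edgeR).

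Complex II has a catalytic pair, Sdha with the flavin and Sdhb with the iron-sulfur clusters, held in the membrane by Sdhc and Sdhd. Sdhb stood at 213, 238 and 257 CPM in control 1 to 3 and 293, 298, 295 and 256 CPM in N+F 1 to 4. The first 3 N+F libraries lay above all controls and N+F 4 lay just below control 3. The log2 fold change was 0.27 ± 0.12 (SE), with an adjusted p of 0.589 (edgeR). Its partner Sdha stood at 183, 180 and 193 CPM in controls and 172, 200, 180 and 200 CPM in N+F. Those groups overlapped fully, at 0.02 ± 0.12, and the sign turned without control 1, control 2, N+F 2 or N+F 4 (-0.02 at the lowest).

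In complex III, Uqcrb, a small subunit near the ubiquinone site, was the highest. Its controls were 285, 264 and 290 CPM and its N+F libraries 319, 366, 353 and 291 CPM, so that control 3 and N+F 4 were almost level. The log2 fold change was 0.25 ± 0.13 (SE), with an adjusted p of 0.662 (edgeR). Uqcrc2, a core subunit that faces the matrix, was the lowest at 0.03 ± 0.11, with controls at 93.5 to 95.9 CPM inside the N+F range of 86.7 to 107 CPM.

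Complex IV held the gene that stood apart. Cox7a1, the isoform of subunit VIIa used in heart and skeletal muscle, stood at 3.62, 5.35 and 3.40 CPM in control 1 to 3. It stood at 0.803, 3.31, 1.68 and 2.88 CPM in N+F 1 to 4, all below the lowest control, though N+F 2 by a small margin. The log2 fold change was -0.90 ± 0.42 (SE), with an adjusted p of 0.599 (edgeR). As a share of all Cox7a1 and Cox7a2 counts it was 2.36% to 3.94% in controls and 0.555% to 2.21% in N+F. Cox8b, the muscle isoform of subunit VIII and not a member, had 5.91, 4.09 and 5.53 CPM in controls and 1.71, 2.95, 2.27 and 3.68 CPM in N+F, also without overlap. Its log2 fold change was -0.96 ± 0.31 (SE), with an adjusted p of 0.369 (edgeR). Beside these values, the 8 mural cell and fibroblast markers, none at 0 counts, summed to 62.15 to 367 CPM in controls and 41.4 to 62.14 CPM in N+F. All 8 had a negative log2 fold change and 1 was called lower. The part of those cells in the Cox7a1 and Cox8b values was not tested.

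The ubiquitous subunits of complex IV had positive values. Cox7a2, the isoform found in most tissues, stood at 114 to 141 CPM in controls and 130 to 156 CPM in N+F, at 0.17 ± 0.12 with overlap. Cox7a2l, a relative of that subunit which joins complexes III and IV into supercomplexes, stood at 0.13 ± 0.14, also with overlap. Cox7c, a small membrane subunit, stood at 141, 117 and 124 CPM in controls and 145, 172, 158 and 145 CPM in N+F, without overlap but with control 1 close to N+F 1 and N+F 4. Its log2 fold change of 0.28 ± 0.12 (SE) had an adjusted p of 0.568 (edgeR). Cox5a, a subunit on the matrix side, stood at 68.7, 71.4 and 75.5 CPM in controls and 76.9, 80.0, 89.4 and 89.7 CPM in N+F, again without overlap. Its log2 fold change was 0.23 ± 0.11 (SE), with an adjusted p of 0.655 (edgeR).

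In complex V, the 3 genes Atp5g1, Atp5g2 and Atp5g3 encode the same subunit c of the membrane rotor and differ in their import sequence. Atp5g2 had the highest log2 fold change of the complex, 0.26 ± 0.14 (SE), and Atp5g1 the lowest, -0.04 ± 0.13, while Atp5g3 stood at 0.04 ± 0.13. The adjusted p were 0.683, 0.969 and 0.966 (edgeR). Atp5g2 stood at 48.7, 54.1 and 64.8 CPM in controls and 63.3, 63.8, 60.9 and 79.7 CPM in N+F, where N+F 4 lay apart and the other N+F libraries lay within the control range. Its share of the subunit c counts was 15.3% to 17.8% in controls and 16.6% to 21.2% in N+F.

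Genes that act on the complexes or beside them were counted in the same fit. None of the 50 assembly factors was called, with 37 positive and a median log2 fold change of 0.11. The 1 gene with an unadjusted p under 0.05 was Cox16, an assembly factor of complex IV, at 0.40 ± 0.13 (adjusted p 0.387, edgeR), named after its value was seen. The citric acid cycle and pyruvate dehydrogenase list, which shares the matrix with these complexes, had 9 of 17 positive and a median of 0.00, and 0 called. Of 13 regulators of mitochondrial biogenesis 0 were called, with 8 positive, 3 at an unadjusted p under 0.05 and a median of 0.03. Their summed level was 372 to 581 CPM in controls and 647 to 815 CPM in N+F, without overlap. Polrmt, the mitochondrial RNA polymerase, held 155, 368 and 360 CPM of it in controls and 535, 406, 589 and 486 CPM in N+F. Its log2 fold change was 0.78 ± 0.26 (SE), with an adjusted p of 0.389 (edgeR). The highest, Tfb1m, a methyltransferase of the mitochondrial ribosomal RNA, stood at 0.80 ± 0.27 (adjusted p 0.398, edgeR), and Gabpa, a subunit of GABP, was the lowest at -0.19 ± 0.18 (adjusted p 0.839). Protein genes of the mitochondrial ribosome had a median of 0.11, with 58 of 74 positive. Those of the cytosolic ribosome had a median of 0.23, with 73 of 75 positive, so a positive sign in most genes of a list was not limited to the respiratory chain.

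In the culture arm the complexes parted, between libraries that also differed in cell markers, as given below. Between the untreated library and the amyloid beta control library, complex II had about 1.74 times the summed level in the hippocampal pair and 1.75 times in the cortical pair. Complex III had 1.58 and 1.49 times, complex V 1.48 and 1.47 times, and complex I 1.28 and 1.29 times. Complex IV had 1.02 and 0.972 times, which is level with the untreated libraries. The median log2 ratio of CPM + 1 (the pseudocount is 1 CPM) over all members was 0.45 in hippocampal and 0.36 in cortical glia, against -0.03 and -0.01 for all genes measured. A positive ratio was seen in 66 and 60 of the 77 members (all genes: 49.1% and 49.8%).

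The call used in culture was a ratio of at least 2-fold in the same direction in both regions. By it 3 members were higher (3.90%; 16.6% of all 14516 genes) and 0 were lower (0.00%; 21.5% of all genes), so large changes were rarer in members than among genes at large. The genes at large were not matched to the members in level or in the cell types that use them. At 1.5-fold the numbers were 16 higher (20.8%; 25.7% of all genes) and 2 lower (2.60%; 29.2%). The regions were close to each other: in the untreated libraries 0 of 77 members, and in the amyloid beta control libraries only Cox7a1, differed by 1.5-fold or more between hippocampal and cortical glia. Among all genes 13.8% and 20.0% did. The 95% interval from counting error alone was ± 0.05 on the log2 scale for Sdhc in hippocampal glia, but ± 0.41 and ± 0.54 for Cox7a1 in the 2 regions, and the spread between cultures is unknown.

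**Figure D3:**
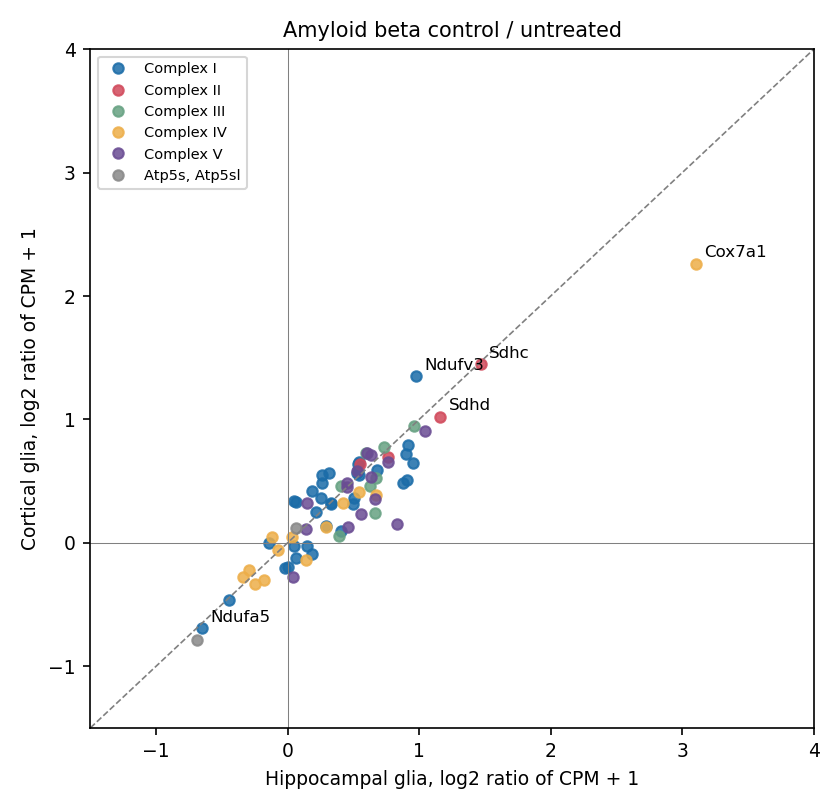
Log2 ratio of CPM + 1, amyloid beta control over untreated, in hippocampal (horizontal) and cortical (vertical) glia for each member, coloured by complex, with equal ratios on the dashed line. The 4 complex II genes lie at about 0.55 or more in both regions, most complex IV genes lie around 0, and Cox7a1 lies apart at 3.11 and 2.26.

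The makeup of the cultures differed along the same contrast. The 10 neuron markers summed to 7358 and 7813 CPM in the untreated hippocampal and cortical libraries, and with amyloid beta control to 374 and 318 CPM, none at 0 counts. In the tissue libraries the same markers summed to 5385 to 7313 CPM. The untreated libraries thus held neuronal RNA, and the name glia follows the labels. Oligodendrocyte markers in the amyloid beta control libraries summed to 0.0328 and 0.0224 times the untreated level, and endothelial markers to 0.0549 and 0.0436 times. Microglia markers summed to 0.172 and 0.241 times. The 9 astrocyte markers summed to 1.12 and 1.08 times, but 4 of them were at least 2-fold higher in both regions and 2 at least 2-fold lower, among them Sox9 (log2 ratios of 3.13 and 2.83) and S100b (-4.48 and -4.03). The 8 mural cell and fibroblast markers summed to 4.51 and 1.92 times, but they were split too. Of these 8, 2 were at least 2-fold higher in both regions and 3 at least 2-fold lower. The extremes were Acta2 (log2 ratios of 5.87 and 4.63) and Rgs5 (-5.11 and -4.77). Amyloid beta treatment and these differences in markers cannot be told apart in these libraries, and this holds for every culture ratio against the untreated libraries.

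Within complex II the membrane anchors stood out from the catalytic pair. Sdhc stood at 72.5 CPM in the untreated hippocampal library, 202 in the amyloid beta control and 163 in the N+F library, and at 70.8, 195 and 178 CPM in cortical glia. Sdhd stood at 77.8, 175 and 167 CPM in hippocampal glia and at 78.5, 161 and 160 CPM in cortical glia. Both were past 2-fold with amyloid beta in each region, and both remained well above the untreated level in the N+F libraries. Together the anchors had 2.51 and 2.38 times the untreated level and the catalytic pair 1.51 and 1.57 times. Sdha had the lowest ratio of the complex, with 414 CPM untreated and 605 with amyloid beta in the hippocampal pair, and 414 and 646 in the cortical pair.

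Complex I was mixed. Ndufv3, a small accessory subunit at the flavin end of the matrix arm, had the highest mean ratio, from 60.4 to 120 CPM in the hippocampal pair and 49.4 to 128 in the cortical pair. The table lists Ndufv3 on 2 lines with the same symbol, and the share of counts on the second line went from 30.8% to 68.6% and from 33.8% to 70.2%. The first line alone stood at 41.8 and 37.6 CPM in hippocampal glia and 32.7 and 38.1 CPM in cortical glia, so the difference lay on the second line. The sources used here do not say what sets these lines apart. Ndufa5, a subunit of the matrix arm, was the lowest, from 66.8 to 42.1 CPM and from 67.2 to 41.2 CPM. It is 1 of the 2 members at least 1.5-fold lower in both regions, with Atp5sl.

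In complex III, Uqcrfs1, the Rieske iron-sulfur protein, had the highest mean ratio, from 99.5 to 195 CPM in the hippocampal pair and 104 to 200 in the cortical pair. It narrowly missed 2-fold in both. Uqcrq, a small subunit, had the lowest, at 72.4 and 95.4 CPM in hippocampal and 99.8 and 104 CPM in cortical glia. In complex V, Atp5g2 had the highest, from 60.7 to 127 CPM and from 62.5 to 118 CPM, which is 2-fold in the hippocampal pair only. Its share of the subunit c counts went from 21.6% to 27.7% and from 22.9% to 27.6%, while that of Atp5g1 went from 27.3% to 18.6% and from 24.2% to 19.3%. Atp5k, subunit e of the membrane part, had the lowest ratio of the complex, at 56.6 and 58.3 CPM in hippocampal and 64.7 and 53.1 CPM in cortical glia.

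Complex IV was level as a whole but not gene by gene. Its median log2 ratio was 0.03 in hippocampal and 0.04 in cortical glia, and -0.02 and -0.00 when only the highest line of each symbol was used. Cox7a1 stood at 0.740 CPM in the untreated hippocampal library, 14.0 in the amyloid beta control and 11.8 in the N+F library. In cortical glia it stood at 0.575, 6.55 and 11.3 CPM. These are 18.9 and 11.4 times the untreated level, and the largest ratios among the members in each region. The mural cell and fibroblast markers summed to 4.51 and 1.92 times, with single markers in both directions, and their part was not tested. The share of Cox7a1 in the Cox7a1 and Cox7a2 counts was 0.792% (95% Wilson interval 0.601 to 1.04) and 12.04% (11.4 to 12.7) in the hippocampal pair. In the cortical pair the share was 0.556% (0.390 to 0.793) and 6.56% (5.96 to 7.21), with intervals that cover counting error only. Cox7a2 itself stood at 92.7 and 102 CPM, and at 103 and 93.4 CPM, which are near level. Cox5b, a zinc-binding subunit on the matrix side, had the lowest mean ratio of the complex over both regions, from 189 to 149 CPM and from 188 to 154 CPM. In cortical glia Cox4i1 and Cox8a, named after their values were seen, were lower still, with log2 ratios of -0.33 and -0.30 against -0.28.

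Other isoforms of complex IV, which are not members, differed along the same contrast. Cox6b2, the testis isoform of subunit VIb, went from 1.75 to 45.1 CPM in hippocampal glia and from 1.40 to 25.7 CPM in cortical glia, with 65.0 and 78.0 CPM in the N+F libraries. Cox6a2, the heart and muscle isoform of subunit VIa, went from 249 counts (3.68 CPM) to 0 counts in the hippocampal pair, at least 91.8-fold lower against a floor of 3 counts per library. In the cortical pair it went from 7.05 to 0.0659 CPM, the latter from 4 counts. Cox6a2 is thus opposite in direction to Cox7a1, the other muscle isoform that these libraries measure well. Cox4i2, an isoform of subunit IV known for its use in lung and under low oxygen, stood at 1.49, 7.31 and 8.02 CPM across the 3 hippocampal libraries and at 2.24, 2.47 and 11.7 CPM across the cortical ones. Its partner Cox4i1 stood at 387 CPM untreated and 325 with amyloid beta in the hippocampal pair, and at 425 and 338 in the cortical pair.

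**Figure D4:**
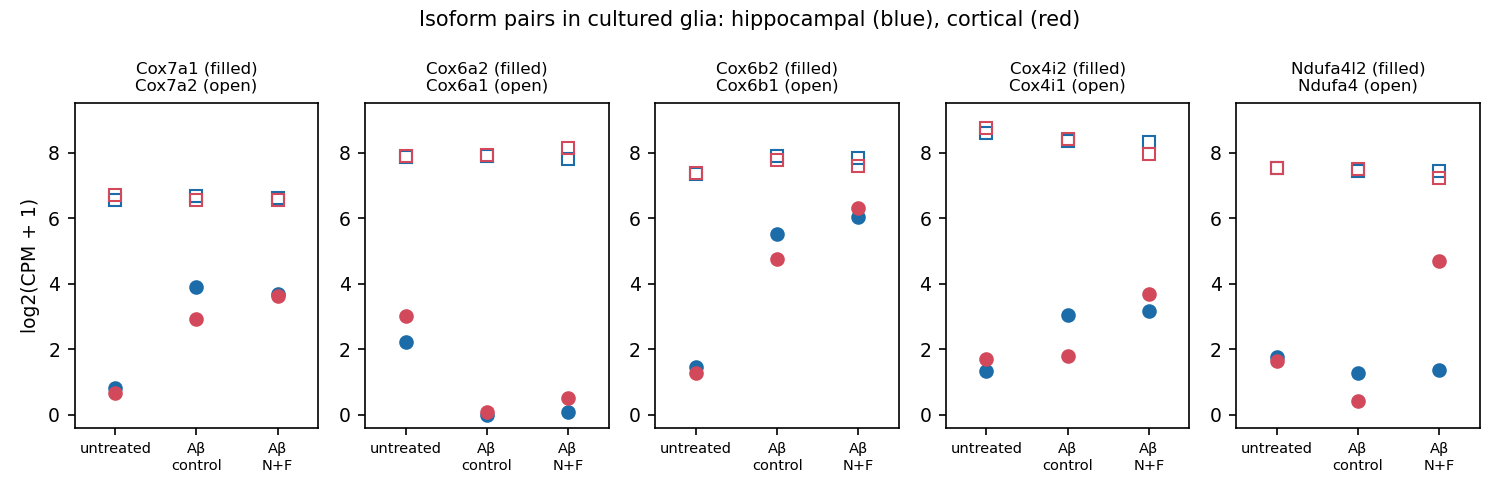
Level of 5 isoform pairs in cultured glia as log2(CPM + 1), in the untreated, amyloid beta control and N+F libraries of hippocampal (blue) and cortical (red) glia, 1 point per library. Cox7a1 and Cox6b2 are lowest and Cox6a2 is highest in the untreated libraries, Cox4i2 and Ndufa4l2 are highest in the cortical N+F library, and the ubiquitous partners (open) lie above them in every library.

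The Nurr1 and Foxa2 virus was next compared with control virus, both with amyloid beta. By library totals the members were close to level in hippocampal glia and somewhat lower in cortical glia. This order of the regions turned with TMM scaling, as given below. No member was past 2-fold in the same direction in both regions (0.00% higher and 0.00% lower, against 2.07% and 0.119% of the 13479 genes measured). At 1.5-fold there were also 0 (5.19% and 1.15% of all genes). The summed level was 0.943 times the amyloid beta control in hippocampal and 0.797 times in cortical glia. Scaling matters here: the median log2 ratio of all genes was 0.12 in hippocampal and -0.18 in cortical glia by library totals, and -0.01 and -0.02 with TMM scaling. The members' median was -0.07 and -0.25 by library totals, and -0.20 and -0.07 with TMM scaling, so relative to all genes the members were lower by more in hippocampal than in cortical glia. By library totals 23 members were positive in hippocampal glia and 16 in cortical glia, where 64.0% and 41.1% of all genes were.

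By complex, from I to V, the hippocampal medians were -0.09, -0.29, -0.10, -0.05 and -0.04, and the cortical medians -0.39, -0.18, -0.25, -0.19 and -0.24. With TMM scaling each stayed below 0. The hippocampal medians were then -0.21, -0.42, -0.22, -0.18 and -0.17, where the all-gene median was -0.007. In cortical glia the all-gene median with TMM scaling was -0.018. There complex II at -0.009 and complex IV at -0.022 lay near the all-gene value. Complex I stood at -0.28, complex III at -0.081 and complex V at -0.063. The 7 core genes of complex I were lower in both regions by library totals, with medians of -0.21 and -0.56, where the accessory genes had -0.05 and -0.30.

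The widest single values came from cortical glia. Ndufb9, a subunit of the membrane arm of complex I, stood at 93.2 CPM in the amyloid beta control and 98.2 CPM in the N+F library of hippocampal glia, but at 98.7 and 42.5 CPM in cortical glia. Cox7a2l stood at 115 and 110 CPM in hippocampal and at 112 and 181 CPM in cortical glia. Ndufa6, which binds the mitochondrial acyl carrier protein within complex I, stood at 73.7 and 72.6 CPM in hippocampal and at 64.1 and 91.7 CPM in cortical glia. Each of these was level in hippocampal glia and past 1.4-fold in cortical glia. Uqcrc1, a core subunit of complex III, was lower in both, from 309 to 244 CPM and from 337 to 202 CPM. Atp5g1 was also lower in both, from 85.2 to 65.3 CPM and from 82.6 to 54.7 CPM, while Atp5e, the epsilon subunit of the F1 part, was at 88.4 and 85.8 CPM in hippocampal and 73.5 and 89.6 CPM in cortical glia.

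**Figure D5:**
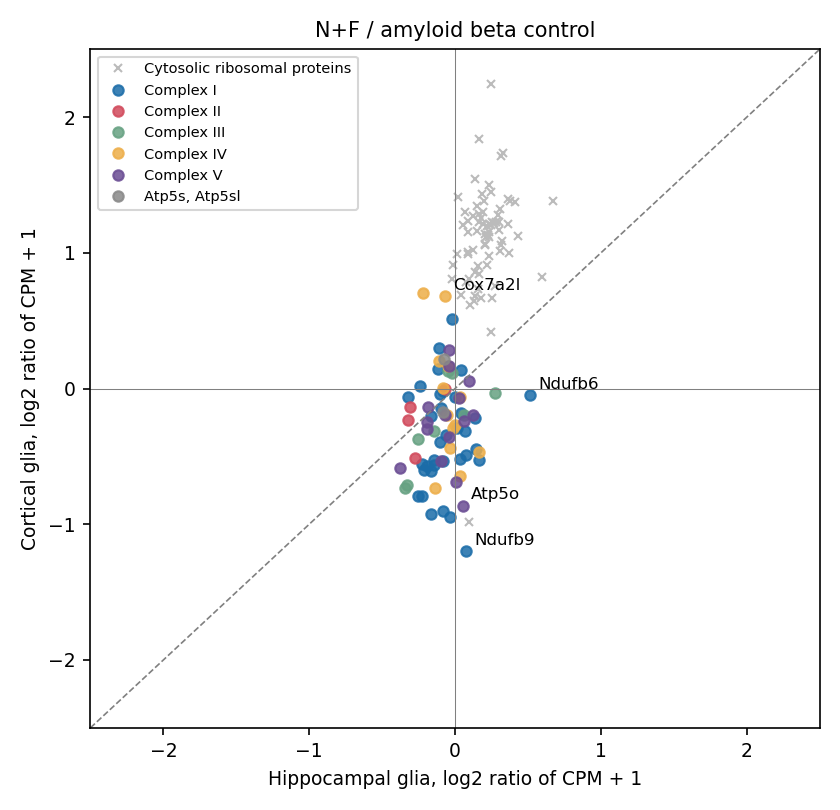
Log2 ratio of CPM + 1, N+F over amyloid beta control, in hippocampal (horizontal) and cortical (vertical) glia for each member, coloured by complex, with protein genes of the cytosolic ribosome as grey crosses and equal ratios on the dashed line. Members spread little along the hippocampal axis and more along the cortical axis, down to -1.20 for Ndufb9, while the ribosomal genes have a cortical median of 1.16.

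The cortical N+F library stood apart from the other 5 in ways that touch these values. Cytosolic ribosome genes had a median log2 ratio of 1.16 there, with 72 of 73 positive, against 0.21 in the hippocampal pair. The 8 mural cell and fibroblast markers summed to 9117 CPM there, and to 259 to 1346 CPM in the other 5 libraries. The 6 choroid plexus markers summed to 406 CPM, near the 497 CPM of the untreated cortical library, where its amyloid beta control had 2.01 CPM. Ndufa4l2, an isoform of Ndufa4 that is not a member, went from 0.329 to 25.03 CPM, and in the hippocampal pair from 1.39 to 1.55 CPM. Between the 2 N+F libraries 11 of 77 members differed by 1.5-fold or more (14.3%), against 0 and 1 in the other conditions, and among all genes 48.6% did. The part of these markers in the cortical values was not tested, and the hippocampal values do not rest on that library.

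Other genes of the pathway were set against the same all-gene values of 64.0% positive and a median of 0.12 in the hippocampal pair, and 41.1% and -0.18 in the cortical pair. Of the 49 assembly factors measured in culture, 27 and 7 had a positive ratio with N+F, with medians of 0.03 and -0.45. Of the 17 genes of the citric acid cycle and pyruvate dehydrogenase, 3 and 0 were positive, with medians of -0.17 and -0.59. With amyloid beta, 2 of the 4 electron carriers outside the complexes, Etfa and Etfdh, were at least 2-fold higher in both regions. Among all 14516 genes measured in that comparison 16.6% were. Etfa, the alpha subunit of the electron transfer flavoprotein that serves fatty acid oxidation, went from 30.1 to 158 CPM and from 32.7 to 155 CPM, and Etfdh passes its electrons on to ubiquinone. Cycs, the cytochrome c that joins complexes III and IV, went from 124 to 154 CPM and from 146 to 168 CPM.

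Ndufs5, an accessory subunit of complex I, stood at 160 to 351 CPM in the tissue libraries and at 1.88 to 4.15 CPM in the culture libraries. Atp5f1, subunit b of the ATP synthase, is listed on 2 lines in culture. The first held 99.9% of the hippocampal counts before and 99.8% after amyloid beta, and 0 counts in the other 4 libraries. The lines were summed for every gene, so its total was not affected. Tissue and culture were counted in separate tables, so the levels of Ndufs5 were set side by side and not compared further.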

How the data were processed

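The authors deposited 2 tables of raw read counts per gene symbol, 1 for the 7 tissue libraries and 1 for the 6 culture libraries. TopHat, HISAT2, edgeR and the build hg19 are named in the submitters' processing notes, without roles; since the symbols are mouse, the build behind the counts was not established and the only coordinates given are those of RefSeq windows (GRCm38.p6). Libraries were made from total RNA with a SMARTer mRNA kit, per the labels' protocols. Lines that repeat a symbol were summed (18 members had several lines in culture). Tissue was tested with edgeR 4.0.16 in R 4.3.3 (filterByExpr, TMM, quasi-likelihood test over 15523 genes, threshold 0.05 after Benjamini-Hochberg adjustment) on the 3 control and 4 N+F libraries; the standard error is the log2 fold change over the root of F. DESeq2 1.42.0, other scalings, filters, a replicate block and leaving out each library were alternatives. Culture, with 1 library per group, was compared as log2 ratios of CPM with a pseudocount of 1, and called at 2-fold in both regions with at least 1 CPM in a library of each pair. The tissue test was tested on simulated data. Genes were named by fixed rules: the markers Ndufa1, Cox7c, Sdhb and Cox5a, the extremes of each complex in each comparison, members past 2-fold in both regions, isoform sets and the extremes of pathway lists. Some genes were also named after their values were seen: Ndufa3, Ndufb2, Ndufs1, Ndufs5, Atp5f1, Cox4i1, Cox8a, Cox16, Polrmt, Sox9, S100b and Cycs. The members and lists were chosen with earlier results of these data known. Replicate libraries differed by more than counting noise.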

Additional observations from a re-analysis of the deposited data

Results flagged for a closer look

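Among the 41 tissue values checked for a library far from the others of its group, 3 had such a library in the N+F group. Chance alone gives about 1 in 20, so 3 of 41 is near that rate. The 41 values come from the same libraries and are not independent. Atp5g2 stood at 79.7 CPM in N+F 4, against 60.9 to 63.8 CPM in the other N+F libraries. Cox5b stood at 1020 CPM in N+F 3, against 811 to 830 CPM in the others. Sdhb stood at 256 CPM in N+F 4, against 293 to 298 CPM in the others.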

How the results depend on the processing

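No member was called under any alternative in tissue, and the members' median stayed positive in all of them, from 0.06 without TMM, where the all-gene median also moved, from -0.004 to -0.094, to 0.19 under the replicate block and without N+F 4, with 55 to 71 members positive. The count of all genes called moved most: 1 higher and 16 lower as reported, 0 higher without TMM, 2 and 27 with no count filter, 63 and 73 with DESeq2, and ranges of 0 to 1 and 0 to 28 when leaving out each library. Same-numbered control and N+F libraries did not deviate together (correlations of -0.001, -0.083 and 0.13), so the numbers were not taken as pairs, and the replicate block gave 0 and 0 genes. Values near 0 changed sign with that shift of all genes for Atp5g3 (-0.043), Ndufv3 (-0.021), Sdha (-0.067), Uqcrc1 (-0.049) and Uqcrc2 (-0.063), each still above the all-gene median, and with the replicate block Atp5g1 (0.035), Atp5g3 (-0.0027) and Sdha (-0.016). Leaving out 1 library gave ranges of -0.062 to 0.099 for Atp5g3, -0.015 to 0.059 for Sdha, -0.084 to 0.10 for Uqcrc1, -0.027 to 0.074 for Uqcrc2 and -0.12 to 0.035 for Atp5g1. In culture, TMM moved the members' N+F median to -0.20 in hippocampal and -0.073 in cortical glia. The highest line per symbol gave an amyloid beta median of 0.40 in hippocampal glia, and complex IV medians of -0.015 and -0.0027. At 1.5-fold, 16 members were higher and 2 lower with amyloid beta. The cause of the other moves was not tested. The counts of non-overlapping members without each library were added after seeing the data. Without replicates, the spread between cultures limits every culture value.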
